A study of Mus musculus with 2 samples.

Results

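The chromosome 9 olfactory receptor genes are the 132 protein-coding genes on mouse chromosome 9 whose names start with Olfr, out of 21670 protein-coding genes annotated on the 19 autosomes and X. The members were taken from the annotation by name alone, and no measured value entered that rule, though earlier results of these data were known. They were examined by ATAC-seq, which cuts accessible DNA with the Tn5 transposase, in granulocyte monocyte progenitors (GMP), bone marrow cells from which neutrophils and monocytes arise. There is 1 group with 2 biological replicates with 50000 cells each, from adult male C57BL/6J mice of 5 to 6 weeks with no treatment named, and both replicates carry the same donor label. All 14 GMP marker genes looked up, Mpo and Elane among them, had an open promoter in both replicates. In both replicates this held for 1 of 8 olfactory neuron, 2 of 4 erythroid, 1 of 4 megakaryocyte, 1 of 4 T cell and 2 of 4 B cell markers. Over all coding genes the promoter was open in 60.02% in replicate 1 and 56.64% in replicate 2. The erythroid and B cell counts thus lay near that background. How the cells were sorted is not described in the labels.

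Olfactory receptors are G protein-coupled receptors that bind odorants on the cilia of olfactory sensory neurons. The genes lie in clusters, most have their whole coding sequence in 1 exon behind short untranslated exons, and each mature neuron expresses a single allele of a single gene. In the sensory neurons the unchosen genes are held in compact heterochromatin, and in tissues outside the nose most of the family is not expressed. A myeloid progenitor is therefore a setting in which these genes are not thought to have a role.

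An open region is a stretch of the deposited conservative list, with overlapping rows joined. Its rows were called on the pooled reads and passed a test of how well their ranks repeat between the replicates. A promoter was called open where a region's summit, the position of its highest signal, lay within 1 kb of an annotated transcription start site (TSS). Fold enrichment is the authors' value for a region, is a ratio over a background that no source used here describes, and served only to describe regions within a list. The files give no read counts, so depth is unknown and a gene without a region is one at which no region passed the list's threshold. The series-level list held 75148 regions, and the lists of replicate 1 and replicate 2 alone held 65423 and 53686.

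The sequences show what sets the olfactory receptor promoters apart before any region is counted. Each promoter is given from 250 bases before to 50 bases from the most 5′ TSS, 5′ to 3′ on the strand of the gene, read from the GRCm38.p6 reference, with CG dinucleotides in capitals. Olfr872 at chr9:20236869-20237168 is the member with a region downstream of its only TSS. Olfr839-ps1 at chr9:19177263-19177562 and Olfr943 at chr9:39166060-39166359 were the members farthest from any region in their clusters, and Zfp560 at chr9:20385128-20385427 is an open zinc finger gene just outside the first cluster.
Olfr872: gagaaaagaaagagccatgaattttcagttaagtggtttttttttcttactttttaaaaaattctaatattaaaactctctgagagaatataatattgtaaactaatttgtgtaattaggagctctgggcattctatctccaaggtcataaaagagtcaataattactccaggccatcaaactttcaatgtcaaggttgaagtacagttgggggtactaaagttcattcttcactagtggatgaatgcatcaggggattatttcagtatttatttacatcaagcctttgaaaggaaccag
Olfr839-ps1: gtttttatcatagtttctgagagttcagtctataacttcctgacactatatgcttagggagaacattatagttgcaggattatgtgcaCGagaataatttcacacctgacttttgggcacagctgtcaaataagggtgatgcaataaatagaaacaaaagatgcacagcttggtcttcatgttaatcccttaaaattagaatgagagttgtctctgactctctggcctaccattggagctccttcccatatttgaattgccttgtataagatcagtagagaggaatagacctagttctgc
Olfr943: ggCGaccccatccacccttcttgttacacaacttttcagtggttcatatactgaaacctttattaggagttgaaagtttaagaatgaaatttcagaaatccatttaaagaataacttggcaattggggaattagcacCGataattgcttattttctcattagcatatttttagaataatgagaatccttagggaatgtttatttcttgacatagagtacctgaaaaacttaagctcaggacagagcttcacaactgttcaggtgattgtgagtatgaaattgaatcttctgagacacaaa
Zfp560: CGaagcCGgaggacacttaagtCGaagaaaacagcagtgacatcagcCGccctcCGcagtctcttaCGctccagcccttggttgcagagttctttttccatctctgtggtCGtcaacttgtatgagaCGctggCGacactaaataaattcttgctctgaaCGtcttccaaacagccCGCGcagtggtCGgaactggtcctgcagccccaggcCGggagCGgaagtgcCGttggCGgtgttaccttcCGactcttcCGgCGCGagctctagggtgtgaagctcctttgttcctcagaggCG
The 300 bases of Olfr872 held 0 CG dinucleotides, those of Olfr839-ps1 held 1 and those of Olfr943 held 2, against 22 in Zfp560.

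Olfactory receptor promoters were poor in CG throughout. Their median CpG observed/expected ratio (the number of CG over the number that the C and G content alone would give) was 0.098, against 0.632 for the 1070 other coding genes of chromosome 9 and 0.543 for all coding genes. Of the 132 promoters, 130 lay under a ratio of 0.4 and 48 (36.4%) held no CG at all, which was the case for 1.68% of the other genes. Median GC content was 36.0% against 57.3%. The 1002 Olfr genes of other chromosomes had a median ratio of 0.088 and no CG in 35.3%.

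Consensus motifs were searched in the 300 bases on both strands, and a match is a description of the letters only. TAATTA, the core that homeodomain proteins such as LHX2 recognise, stood in 26 of the 132 promoters (19.7%), against 3.46% of other chromosome 9 genes and 5.15% of all genes. TATAAA, the TATA box, stood in 40.2% against 9.44% and 12.6%. AGATAA, read by GATA factors, stood in 29.5% against 8.32% and 10.04%. TCCCNNGGG, the EBF motif of olfactory neurons and B cells, stood in 10.6% against 7.76% and 7.87%. TTGCNNAA, for the myeloid C/EBP factors, stood in 16.7% against 9.63% and 10.5%. GAGGAAGT, for the myeloid factor PU.1, stood in 2.27% against 3.46% and 3.23%. TGTGGTT, for RUNX factors, stood in 2.27% against 5.33% and 5.01%, and the CTCF consensus in 0 of 132 against 0.841% and 0.549%. Of the 8 motifs, TAATTA, the TATA box and the GATA motif differed the most in percentage points. In the 1002 Olfr genes of other chromosomes these 3 stood in 24.8%, 32.5% and 24.9%. EBF, C/EBP and PU.1 motifs stood there in 11.0%, 18.4% and 1.70%, and the CTCF consensus in 0. RUNX motifs stood there in 7.29%. The lower RUNX share of the members rests on 3 promoters and carries a wide counting error. The TAATTA and the GATA and TATA box letters are short and can share bases in AT-rich sequence.

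Of the 132 chromosome 9 olfactory receptor genes, 3 had an open promoter (2.27%): Olfr229, Olfr872 and Olfr963. The same rule called 69.2% of the other coding genes of chromosome 9 (740 of 1070) and 61.4% of all coding genes. Olfr genes of other chromosomes were open in 26 of 1002 cases (2.59%), so the share on chromosome 9 lay next to that of the family. In replicate 1 alone the members counted 3 (Olfr229, Olfr872 and Olfr961) against 67.1% of the other genes. In replicate 2 alone they counted 2 (Olfr229 and Olfr872) against 63.6%. Members were few among the called genes in both replicates, while the other genes of the chromosome were called in the majority. With a single group there is no comparison between conditions, and genes are not replicates, so these shares are given without a test.

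**Figure D1:**
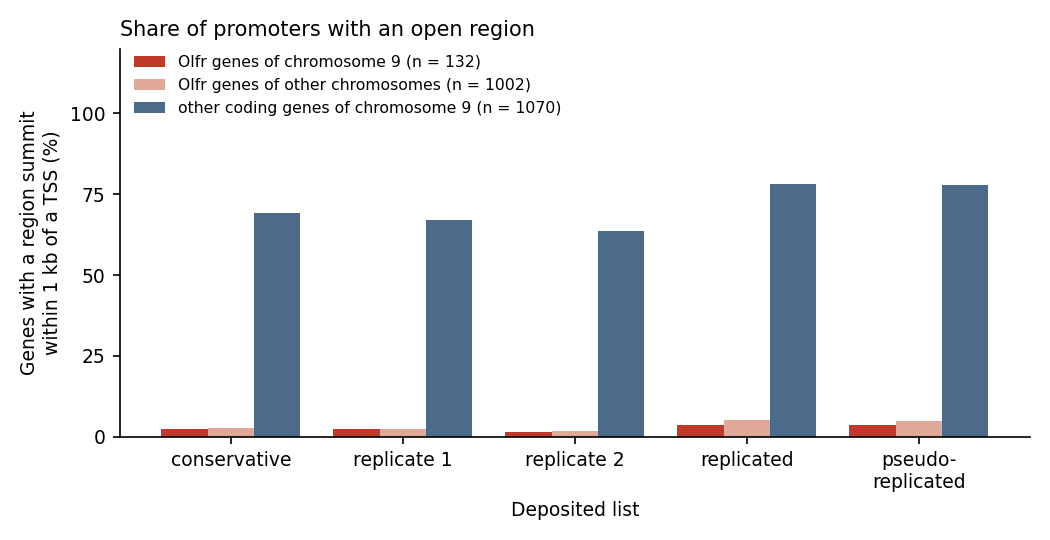
Bars give the percentage of genes with a region summit within 1 kb of a TSS (y axis) in each of 5 deposited lists (x axis), for chromosome 9 Olfr genes, Olfr genes of other chromosomes and the other coding genes of chromosome 9. The Olfr bars stay near the axis in every list drawn, at 1.52% to 5.19%, and the bars of the other genes reach 63.6% to 78.0%. No error bars are drawn, because each bar is 1 share from 1 list.

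Looser lists added few members. The replicated and pseudoreplicated series lists, which keep regions of weaker rank agreement, held 5 members with an open promoter, the added ones being Olfr960 and Olfr961. Those lists called 78.0% and 77.8% of the other genes. The full ranked list between replicates held the same 5 members and 78.3% of the other genes. The pseudoreplicated list of replicate 1 held 6, with Olfr922 added, against 76.8% of the other genes. That of replicate 2 held Olfr229 and Olfr872, against 74.7% of the other genes. In all 126 members had no open promoter in any list examined.

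Other CG-poor genes were called more often than the receptors. Among the other coding genes of chromosome 9 with a CpG ratio under 0.4, the rule called 34.7% (116 of 334), against 84.8% of those at or above it. In that range of CpG ratio, 3 of 130 members were called (2.31%), and 112 and 97 of the 334 other genes were called in replicate 1 and replicate 2. The members lay low in the range, with a median ratio of 0.098 over all of them. Within the range the groups were not matched for CpG ratio or GC content.

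**Figure D2:**
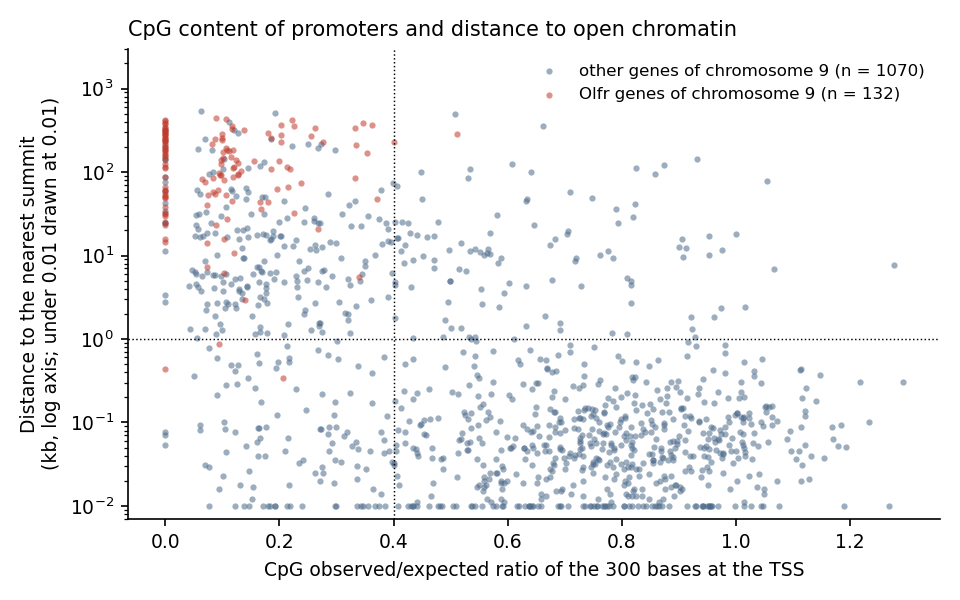
Each point is a coding gene of chromosome 9, with the CpG observed/expected ratio of its 300 promoter bases (x axis) and the distance from its TSS to the nearest region summit in kb (y axis, logarithmic). Dotted lines mark a ratio of 0.4 and a distance of 1 kb. Olfr points lie at the upper left with 3 below the line, while other genes of low CpG ratio lie on both sides of it.

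Where the summits of the called members fell differed from an ordinary promoter. Olfr872 has 1 annotated TSS, and its region at chr9:20237376-20237779 had its summit 431 bp downstream of it, in the first intron. Its fold was 7.51 in the series list, 7.94 in replicate 1 and 5.69 in replicate 2. Olfr229 had the strongest region at a member, at chr9:39909686-39910337, with a fold of 14.6, and of 13.3 and 13.2 in replicate 1 and replicate 2. That summit lay 339 bp downstream of a transcript model that begins at the start codon, inside the coding exon, and 2808 bp downstream of the most 5′ TSS. Olfr963 had a weaker region at chr9:39669798-39670119, with a fold of 5.78, that passed in neither replicate's own thresholded list. The pseudoreplicated list of replicate 1 called Olfr963 with a fold of 5.95, and no list of replicate 2 called it. In the series list the Olfr963 summit lay 871 bp downstream of a second model that begins at the start codon. It was again inside the coding exon, and 2725 bp from the most 5′ TSS. Olfr229 and Olfr963 were thus open in their coding exon and not at the start of their longest transcripts.

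Such transcript models are common in the family. A coding transcript that begins at the start codon was annotated for 67 members (50.8%), against 7.94% of the other chromosome 9 genes. With the most 5′ TSS alone, 1 member was called (Olfr872, 0.758%), against 64.3% of the other genes and 15 of the 1002 other Olfr genes (1.497%). Over all lists examined in which a member was called, 5 of the 6 called members had their summit in the coding exon. Olfr872 was the exception.

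The sequences at the summits are given for these members, since the regions and not the annotated promoters are what was measured. The 120 bases around the summits of Olfr872 (chr9:20237490-20237609) and Olfr229 (chr9:39910084-39910203), plus strand with CG in capitals, read as follows.
Olfr872 summit: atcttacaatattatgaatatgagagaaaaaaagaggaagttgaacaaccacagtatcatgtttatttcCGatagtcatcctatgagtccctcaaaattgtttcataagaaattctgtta
Olfr229 summit: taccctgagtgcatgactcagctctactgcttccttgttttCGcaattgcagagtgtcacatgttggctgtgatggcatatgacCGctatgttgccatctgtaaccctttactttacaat
The Olfr872 window held the PU.1 motif GAGGAAGT and the RUNX motif TGTGGTT, on one strand or the other, and the Olfr229 window held the C/EBP motif TTGCNNAA. None of the motifs searched stood in the 120 bases around the summits of Olfr963 and Olfr960. The window of Olfr961 held the C/EBP motif, and that of Olfr922 held PU.1 and GATA motifs. Over all 3950 regions of chromosome 9 outside the clusters, PU.1, RUNX and C/EBP motifs stood somewhere in 11.2%, 10.9% and 18.0% of the regions, which are longer than these windows.

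Olfr960, Olfr961 and Olfr963 were close to one another in sequence around their summits, and each carried its region near the end of the coding exon. The whole genes were not compared. Their summits lay at base 866 of 948, base 844 of 942 and base 872 of 933 of that exon. The 120-base windows around them (chr9:39623930-39624049, chr9:39647511-39647630 and chr9:39669870-39669989, plus strand) are shown with the longest run common to all 3, of 25 bases, in capitals.
Olfr960: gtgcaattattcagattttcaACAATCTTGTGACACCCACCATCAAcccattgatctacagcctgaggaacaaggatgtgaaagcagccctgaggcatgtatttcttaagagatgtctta
Olfr961: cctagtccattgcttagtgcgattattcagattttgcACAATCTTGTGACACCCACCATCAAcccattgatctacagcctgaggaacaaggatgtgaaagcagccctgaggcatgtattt
Olfr963: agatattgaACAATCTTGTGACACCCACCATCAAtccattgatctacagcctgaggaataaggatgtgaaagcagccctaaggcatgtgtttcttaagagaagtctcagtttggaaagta
The closest ungapped match of the Olfr963 window in Olfr960 was 89.2% identical, and that of the Olfr961 window in Olfr960 was 95.8% identical. In the Olfr960 and Olfr961 windows 50% of positions began a 32-base word that occurs once in the genome, against 100% in the Olfr963 window. How reads that fit more than 1 place were assigned is not stated in the labels or file lists, and its part in these 3 weak regions was not tested. In the replicated list their folds were 5.63, 4.91 and 5.78.

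The 132 members fell into 2 clusters, with no neighbouring members more than 500 kb apart within either. Cluster 1 at chr9:18751507-20336094 holds 37 members over 1.58 Mb, from Olfr24 to Olfr18, with the zinc finger gene Zfp317 in its midst. Cluster 2 at chr9:37708964-40190134 holds 95 members over 2.48 Mb, from Olfr160 to Olfr986, with Vwa5a, AW551984 and Tmem225 among them. A further 41 Olfr genes of chromosome 9 are annotated as pseudogenes or other classes and are no members. Olfr839-ps1, Olfr896-ps1 and Olfr911-ps1 are members, because they are annotated as protein-coding although their names carry a pseudogene suffix.

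**Figure D3:**
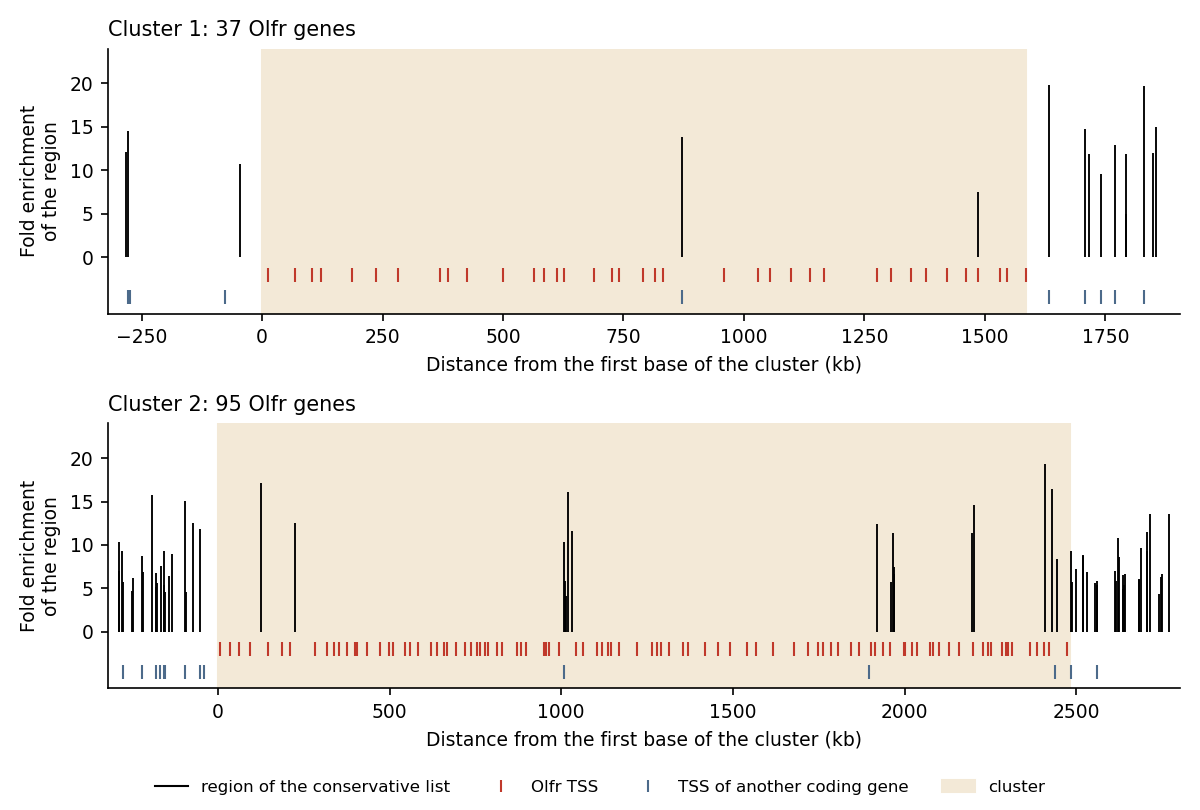
Black lines give the fold enrichment (y axis) of each region of the conservative list along both clusters and 300 kb on either side, by distance from the first base of the cluster in kb (x axis). Red ticks are Olfr TSSs, blue ticks are TSSs of other coding genes, and shading marks the cluster. Cluster 1 shows 2 regions, and the 17 regions of cluster 2 stand in a few groups with long empty stretches between them.

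Open regions were sparse in the clusters. The 2 clusters together held 19 region summits over 4.07 Mb, or 4.67 per Mb, against 33.7 per Mb over the rest of chromosome 9. Cluster 1 had 1.26 per Mb and cluster 2 had 6.85 per Mb. Replicate 1 alone gave 4.67 per Mb in the clusters and 29.1 over the rest, and replicate 2 gave 3.69 and 23.8. The rest exceeded the clusters 7.22 times in the series list, 6.22 times in replicate 1 and 6.44 times in replicate 2, so the gap was far larger than the difference between the replicates. Regions covered 0.280% of the bases in the clusters and 1.85% of the rest.

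Most members stood far from open chromatin. From a member's TSS to the nearest summit the median distance was 132 kb in the series list and in each replicate's list, with a range of 0.339 to 445 kb in the series list. Other coding genes of chromosome 9 had a median of 0.112 kb, those with a CpG ratio under 0.4 had 3.86 kb, and Olfr genes elsewhere had 111 kb. More than 100 kb separated 77 members (58.3%) from any summit, against 3.08% of the other genes. Cluster 1 had a median of 169 kb and cluster 2 of 113 kb. The farthest members were Olfr839-ps1 (445 kb), Olfr837 (430 kb), Olfr943 (425 kb), Olfr836 (415 kb) and Olfr944 (412 kb). The nearest, after the 3 called ones, were Olfr984 at 2.91 kb and Olfr986 at 5.55 kb. Distances moved by under 0.1 kb between the replicates for these members. Olfr963, at 0.871 kb in the series list, stood 5.95 kb from a summit in either replicate's own list.

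**Figure D4:**
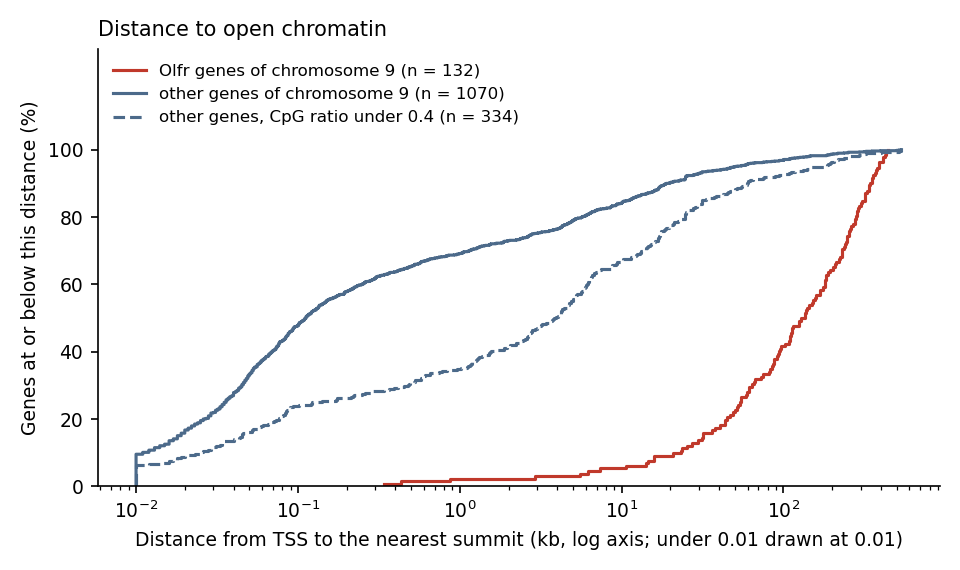
Curves give the cumulative percentage of genes (y axis) against the distance from any of their TSSs to the nearest region summit in kb (x axis, logarithmic) for 132 Olfr genes, 1070 other coding genes of chromosome 9 and the 334 of them with a CpG ratio under 0.4. The Olfr curve rises only beyond 10 kb, where 84.1% of the other genes are already counted, and 5.30% of Olfr genes lie within that distance.

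In bins of 100 kb, 32 of the 40 bins inside the clusters (80%) held no summit, against 33.5% of 1174 bins over the rest of the chromosome. The count of empty cluster bins was 32 in either replicate too, which leaves 8 filled bins. The rest of the chromosome had 34.6% empty bins in replicate 1 and 40.03% in replicate 2.

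Sequence of the clusters differs from the rest in ways that bear on read placement. In the clusters 75.1% of bases began a unique 32-base word, against 87.7% over the rest of the chromosome. Repeats masked in the reference made up 48.7% against 31.4%, and GC content was 37.8% against 42.9%. Counted per Mb of unique sequence, the density was 6.22 in the clusters and 38.5 over the rest, a ratio of 6.19. The 300 bases at the most 5′ TSS of the members were mostly unique, with a median of 100% and 2 of 132 under 50%. That value does not cover their other TSSs or their coding exons, where most of the called members had their summit.

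Within 500 kb of each of the 4 edges more summits lay outside the cluster than inside it, with the smallest difference before cluster 1. Over the 500 kb outside, the flanks held 5, 28, 34 and 52 summits before and after cluster 1 and before and after cluster 2. Over the 500 kb inside the same edges there were 0, 1, 2 and 5. The flank before cluster 1, next to the mucin gene Muc16, was sparse itself at 10 per Mb, while the other flanks had 56.0, 68.0 and 104 per Mb. In all the flanks held 119 summits and the inner sides 8, and the replicates gave 105 against 8 and 87 against 7. The flanks were themselves denser than the rest of chromosome 9, which includes them, at 59.5 against 33.7 per Mb. They held 36 coding genes in 2.0 Mb, against 1066 in 117 Mb. In the 50 kb nearest the edges 7 summits lay outside and 1 inside, but 5 of the 7 stood after cluster 2, and before cluster 2 there was none on either side.

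**Figure D5:**
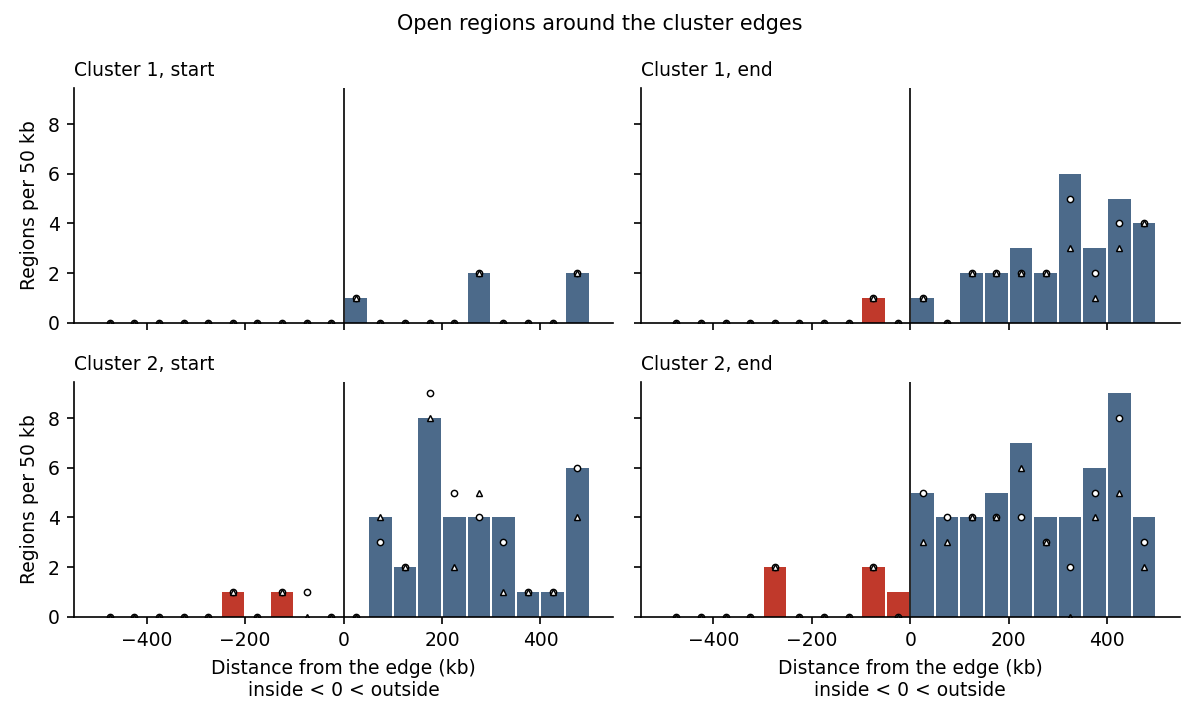
Bars count region summits of the conservative list in bins of 50 kb (y axis) by distance from each of the 4 cluster edges in kb (x axis), with the inside of the cluster left of 0 in red and the outside in blue. Open circles are replicate 1 and open triangles replicate 2. Outside bars are low before cluster 1, where 5 summits lie within 500 kb, and higher at the other edges, and few inside bins hold any summit.

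Of the regions outside the edges, the closest to a cluster lay after cluster 2. Olfr986, the last receptor gene, is followed by the zinc finger gene Zfp202, whose open promoter had its summit 2.49 kb outside the edge with a fold of 9.30, and of 8.98 and 8.62 in replicate 1 and replicate 2. After cluster 1 the first summit stood 49.1 kb beyond Olfr18, at the TSS of Zfp560, with folds of 19.8, 19.2 and 17.9. Before cluster 2 it stood 51.7 kb from the edge, at the promoter of Tbrg1, past Panx3, whose own promoter was not open. Before cluster 1 the nearest region outside was intergenic, 45.7 kb from the edge, with folds of 10.7, 13.3 and 6.14. Inside, the nearest summits stood 871, 98.5, 125 and 38.3 kb from these edges, counted from the start of cluster 1.

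Around the intergenic summit before cluster 1 (chr9:18705670-18705969, plus strand, CG in capitals) the 300 bases held no CG. They are shown beside the 300 bases around the strongest region inside the clusters (chr9:40116967-40117266), which stood 2.91 kb from Olfr984.
Before cluster 1: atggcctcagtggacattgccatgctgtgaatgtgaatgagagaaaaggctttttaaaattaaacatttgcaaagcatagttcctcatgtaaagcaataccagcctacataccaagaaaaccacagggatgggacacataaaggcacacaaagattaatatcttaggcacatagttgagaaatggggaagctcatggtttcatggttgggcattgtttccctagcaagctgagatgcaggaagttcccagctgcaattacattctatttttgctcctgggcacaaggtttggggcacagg
Near Olfr984: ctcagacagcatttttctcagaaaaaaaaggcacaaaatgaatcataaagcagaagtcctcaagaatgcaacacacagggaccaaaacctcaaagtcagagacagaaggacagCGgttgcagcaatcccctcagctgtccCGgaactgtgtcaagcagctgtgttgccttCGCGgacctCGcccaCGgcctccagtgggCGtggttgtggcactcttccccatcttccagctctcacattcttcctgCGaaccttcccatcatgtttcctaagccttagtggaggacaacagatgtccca
The second window held 8 CG and a GC content of 51.3%, against a median of 36.0% and a highest value of 51.7% among the receptor promoters, and the first had 43.0% GC.

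Few regions lay inside the clusters, and most were not at receptor genes. Of the 19 regions, 6 had a promoter summit, 3 lay in introns and 10 between genes. In cluster 1 the 2 regions were the promoter of Zfp317, with folds of 13.8, 13.8 and 13.0 in the series, replicate 1 and replicate 2 lists, and the Olfr872 region. In cluster 2, 5 of the 17 regions belonged to Vwa5a, 2 at its promoter and 3 in its introns, the strongest an intron region with folds of 16.1, 15.7 and 14.3. AW551984 and Tmem225 had no open promoter, with the nearest summits 24.9 and 3.72 kb away. The non-receptor genes inside the clusters were thus open in 2 of 4 cases, too few to set against the 69.2% of other chromosome 9 genes. The CpG ratios were 1.15 and 0.193 for the open Zfp317 and Vwa5a, and 0.415 and 0.063 for AW551984 and Tmem225. The receptor genes beside them were open in 3 of 132 cases.

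The intergenic regions of cluster 2 stood in groups. Near its start a region 125 kb from the edge had folds of 17.1, 16.8 and 14.2, and stood 20.7 kb from Olfr877, and another 14.2 kb from Olfr878 had 12.6, 13.9 and 8.88. Beside Olfr960 a region at 6.19 kb had folds of 12.4, 13.3 and 8.79. Beyond Olfr963 3 intergenic regions followed within 10.4 kb, with series folds of 11.4, 7.49 and 6.70, all present in both replicates. A region 2.05 kb from Olfr229 had folds of 11.4, 11.6 and 10.1. Near the end of cluster 2 the region by Olfr984 had the highest fold of all, 19.3, with 18.0 and 18.2 in the replicates, and one 7.31 kb from Olfr985 had 16.5, 16.1 and 12.3. The last, with a fold of 8.38 between Olfr985 and Olfr986, passed in neither replicate's own list.

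The median fold of these regions was 11.4, against 8.09 over the other 3950 regions of chromosome 9. Without merging of rows the medians were 7.41 against 6.68, and in the replicated list 7.95 against 5.92. Their median width was 639 bp against 465 bp. In both replicates' own lists 15 of the 19 were found (78.9%), against 65.1% of the others. The C/EBP motif TTGCNNAA stood in 8 of the 19 (42.1%) against 18.0% of the others, and TATAAA in 7 (36.8%) against 10.8%. RUNX motifs stood in 15.8% against 10.9%, PU.1 motifs in 10.5% against 11.2% and GATA motifs in 10.5% against 11.4%. The CTCF, EBF and homeodomain motifs stood in 0 of the 19, and in 5.32%, 4.89% and 4.43% of the others. With 19 regions these shares carry a wide counting error, and the regions are wider and lower in GC than the others.

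Other receptor families and the genes that act with olfactory receptors were set beside them, from lists chosen from general knowledge. Vomeronasal receptors, which detect pheromones, were open in 1 of 209 Vmn1r and 2 of 122 Vmn2r genes, and the trace amine receptors in 1 of 15 Taar genes. Of 16 genes of olfactory signal transduction, 8 had an open promoter, a share of 50% beside the 61.4% of all coding genes. Adcy3, the adenylyl cyclase of the cilia, had folds of 9.39, 12.1 and 6.24. Gnal, the G protein alpha subunit of the pathway, had 6.07 and 7.61 in the series and replicate 1 lists and no region in replicate 2. Omp, the marker protein of mature olfactory neurons, Cnga2, a subunit of the ciliary channel, and Rtp1, which carries receptors to the membrane, had no open promoter. Gnal and Adcy3 were the open ones among the olfactory neuron markers.

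Of 12 regulators of receptor choice 10 had an open promoter, and 10 in each replicate. All 12 had a CpG ratio of at least 0.4, a range in which 84.8% of the non-receptor genes of chromosome 9 were open, so this count lay near the background. Open were among others Lhx2 (folds of 7.08, 8.24 and 5.67), Ldb1 (10.9, 13.0 and 8.08), Ebf1 (11.7, 12.03 and 10.02) and Kdm1a (14.7, 15.1 and 12.8). LHX2, LDB1 and EBF act at the enhancers of the receptor genes in olfactory neurons, and KDM1A is a histone demethylase needed for the first choice. Ebf4 and Emx2 had none. Of 14 genes for heterochromatin proteins, 13 had an open promoter, Cbx5, Trim28 and Lbr among them, and Ehmt2 had none. All 14 also lay at or above that CpG ratio.

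Among the 23 olfactory receptor clusters of the genome with at least 10 genes, density ran from 0 to 57.9 regions per Mb with a median of 5.15, against 29.4 over the genome. Cluster 1 of chromosome 9 stood eighth from the lowest and cluster 2 stood fourteenth. No region lay in 7 of the 23. Cluster 1 was therefore the sparsest of those that held any region, and cluster 2, at 6.85 per Mb, stood above the median. Receptor clusters denser than the genome lay on chromosomes 14, 13 and 11, at 35.6, 43.9 and 57.9 per Mb. Their receptor promoters were open in 0 of 28, 0 of 13 and 1 of 19 cases. Below them in density, clusters of chromosomes 1 and 19, at 24.4 and 24.3 per Mb, had 3 of 13 and 0 of 66 open. A chromosome 7 cluster at 21.8 per Mb had 9 of 128 open, and the next sparser one, also on chromosome 7, had 0 of 26. The 23 clusters held 20 open receptor promoters in all. Whether density and open receptor promoters went together over the 23 clusters was not tested.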

How the data were processed

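ATAC-seq region lists of 2 GMP replicates were used. Per the labels, coordinates are mm10. Tools for mapping and calling and any Tn5 shift are not named in the labels or file lists. The labels name a pair of instruments for replicate 1 and none for replicate 2. The deposited rows carry, as the authors gave them, a fold enrichment (a ratio), a q value on a -log10 scale, a score used for ranking and a summit offset. In the ranked list between replicates, 8 columns of unnamed single-replicate values were not used. Rows overlapping by 1 bp were merged, and a region kept the summit and fold of its row with the highest fold. TSSs came from protein-coding transcripts of GENCODE vM21 on GRCm38.p6. Densities used bases other than N, and uniqueness used 32-base words over 21 chromosomes. Code (Python 3.11.15, numpy 2.4.6, pandas 2.3.3) was tested on simulated data. Depth is unknown, no test was run, and the members, clusters, motifs and gene lists were chosen with earlier results of these data known. Named members are those with an open promoter in the conservative or a replicate's thresholded list, the ends of each cluster, and the 5 nearest to and 5 farthest from a summit, with the neighbours and regions of the clusters. Olfr960, Olfr922, the coding-exon windows and the set of all-transcript TSSs were added after their values were seen, as was the comparison of long gaps. Alternatives were other lists, single replicates, windows, TSS sets and cluster gaps.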

Additional observations from a re-analysis of the deposited data

How the results depend on the processing

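Depth is unknown, and a region absent from a list is one that did not pass its threshold. With 1 group there is no contrast to test. No paired analysis was possible because the series holds 1 group and no result comes from a test. In every alternative below, members stayed rarer among open promoters and clusters sparser than the other genes and the rest of chromosome 9. Members with an open promoter numbered 5 in the replicated and 5 in the pseudoreplicated list, 1 with regions at or above the median fold, and 1 with the most 5′ TSS alone. Over single replicates they numbered 2 to 3. The share of other chromosome 9 genes was 78.0% and 77.8% in the looser lists, 51.0% with the fold limit, 65.2% and 73.8% with windows of 500 bp and 2.5 kb, 64.3% with the most 5′ TSS, 34.7% under a CpG ratio of 0.4, and 63.6% to 67.1% over single replicates. Density in the clusters was 6.89 and 6.64 per Mb in the looser lists, 3.197 with the fold limit, 7.62 without merging, 3.197 outside promoters, 6.22 per unique Mb, and 3.69 to 4.67 over single replicates. Over the rest the same settings gave 54.6, 53.5, 17.0, 48.9, 26.4 and 38.5, and 23.8 to 29.1 over single replicates. The median member distance was 114 kb in both looser lists, 146 kb with the fold limit and 132 kb in either replicate. Empty cluster bins were 77.5% in both looser lists and 82.5% with the fold limit. In the 50 kb outside the edges the density, 35.0 per Mb, became 50 and 50 in the looser lists, 25 with the fold limit, 50 without merging and 25 to 35.0 over single replicates. The median fold inside the clusters was 7.95 and 8.38 in the looser lists, 12.6 with the fold limit, 7.41 without merging and 10.5 to 11.6 over single replicates. The cause of each move was not tested beyond what the setting itself changes. The same clusters formed with gaps of 200 kb or 1000 kb.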

Other observations

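The stretches of chromosome 9 without any region summit were ranked by length, after the values had been seen. Of 3968 stretches with a median of 8.87 kb, the ranks 10, 11 and 15 lay at the receptor clusters, at 916, 888 and 786 kb, and together held the TSSs of 85 members (64.4%), as 21, 30 and 34. The longest 20 stretches included 17 without a member, which held a median of 1 coding gene. The exception among them was a stretch of 1134 kb at chr9:35593098-36726652 with 15 coding genes, among them Pate4, Pate3 and Pate1, secreted proteins of the male reproductive tract, and Acrv1, a protein of the sperm acrosome. Long stretches without open chromatin were thus otherwise poor in genes, and those that held many genes held the receptor family or this group.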
